A study of Gallus gallus with 6 samples.

Results

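The libraries described here are 6 blood leukocyte samples of chickens, regrouped by the signal of HINTW, a gene of the female-specific W chromosome. Members were selected on the average signal of the 8 array probes that map to HINTW. The 3 libraries with the highest average were called HINTW-high and the other 3 HINTW-low, so that all 6 libraries of the series were used. HINTW-high were the libraries labelled female 1, female 2 and male 3. HINTW-low were those labelled female 3, male 1 and male 2. The classes thus come from measured values and cross the labels. All samples were leukocytes from the interface of a density gradient of wing-vein blood, from birds aged 1 to 2 months, with 1 single-colour oligonucleotide array each. The labels give no treatment, strain or genotype and do not say whether each sample came from a separate bird, so p-values measure only the spread between these samples. The series was designed to set the labelled males against the labelled females.

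In birds, males carry a pair of Z chromosomes and females carry a Z and a W. HINTW lies on W in many copies and belongs to the family of histidine triad nucleotide-binding proteins, and its Z partner is listed as HINT2 with the synonym HINT1Z. Birds have no chromosome-wide mechanism that equalises Z expression as X inactivation does in mammals, and Z genes are known to differ in how far they follow their copy number.

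The average HINTW signal, in log2 units relative to the array's 75th percentile, was 5.75, 5.68 and 6.13 in female 1, female 2 and male 3. It was -3.88, -3.99 and -4.13 in female 3, male 1 and male 2. The class boundary fell in a gap of 9.57 log2 between 5.68 and -3.88, with no library near it. The mean of the 3 probes of LOC100857579, a second W gene of the HINT family, split the libraries the same way. Every value below is in the same unit, and triplets are given in the order female 1, female 2, male 3 for HINTW-high and female 3, male 1, male 2 for HINTW-low. Signed differences are HINTW-high minus HINTW-low.

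Only HINTW and LOC100857579 differed by over 2 log2 among the 9 W genes. W genes belong to the chromosome that set the classes, so they are described without a test. On the brightest probe of each gene, the difference was 2.12 log2 for HINTW and 2.51 for LOC100857579, and it lay between -0.30 and 0.27 for the other 7 W genes. These 7 probes were well above background in all 6 libraries. On their less bright probes HINTW differed by 7.31 to 13.88 log2 and LOC100857579 by 11.82 and 12.38. On some of these probes the HINTW-low values were not well above background. Less bright probes of UBAP2L2, SPIN1L and ENS-1 also differed by more. A second UBAP2L2 probe read -1.95, -2.18 and -2.44 against -3.12, -3.64 and -3.44. A second SPIN1L probe read 0.44, 0.03 and 0.34 against -0.70, -0.74 and -0.58. A dim ENS-1 probe was well above background in all 3 HINTW-high libraries and in no HINTW-low one.

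**Figure D1:**
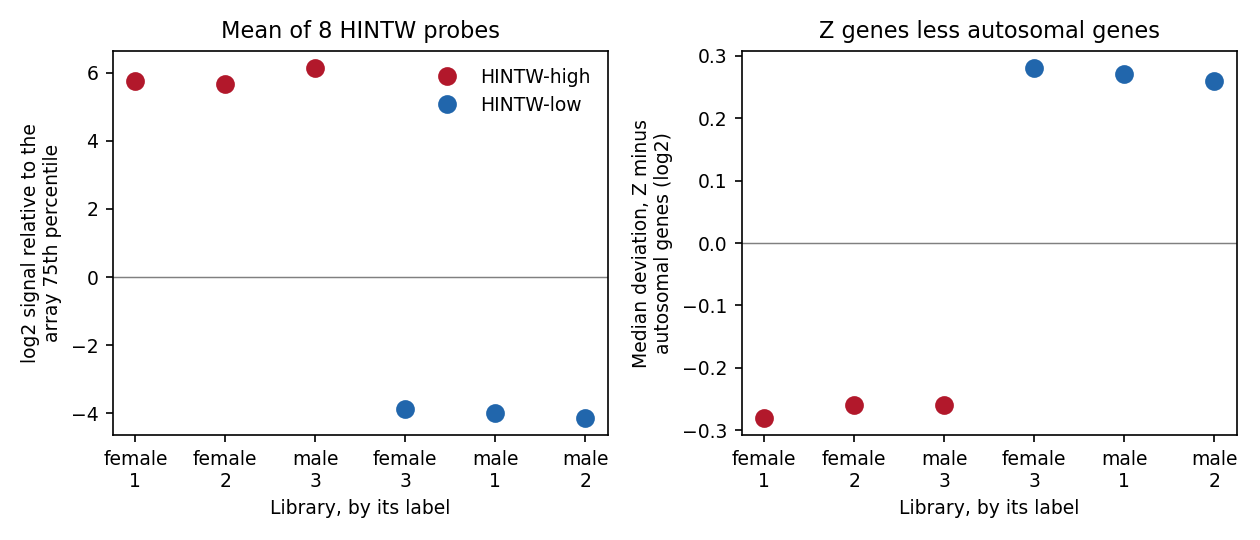
Left, mean log2 signal of the 8 HINTW probes per library. Right, median deviation of Z genes minus the autosomal median (log2) per library. HINTW-high libraries (red) lie between 5.68 and 6.13 on the left and between -0.28 and -0.26 on the right, and HINTW-low libraries (blue) between -4.13 and -3.88 and between 0.26 and 0.28.

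The arrays were alike in quality. Of the 43803 non-control spots on an array, between 79.0% and 83.1% passed the scanner's test against background, and none was saturated. Precision is limited by there being 3 arrays in a class. Slide 1 carried the libraries labelled female and slide 2 those labelled male, so that slide and labelled sex cannot be told apart, while both HINTW classes were on each slide. All 6 measured pan-leukocyte markers were well above background in every library, among them PTPRC (the leukocyte antigen CD45) and the integrin ITGB2. So were the 11 heterophil, 6 thrombocyte and 13 T cell markers measured and 15 of 17 erythroid markers, so the fraction did not hold signal of white cells alone.

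Between the classes, 546 of 29509 features (1.85%) passed limma's test at an adjusted p threshold of 0.05. Of these, 275 (0.932% of the features) were higher and 271 (0.918%) lower in HINTW-high. Z genes made up 56 of the calls, which is 28.3% of the 198 Z genes measured, and 54 of the 56 were lower in HINTW-high. Of 4647 autosomal genes, 24 (0.516%) passed, 19 higher and 5 lower. FLNA, a gene with no chromosome in the annotation, passed too. HINTW and LOC100857579 stand among the 546 only because the fit held all features; they set the classes and are no evidence, and without the W genes the count was 544 of 29500 (1.84%). The remaining 463 calls were probes without a gene name. The even split between higher and lower calls depends on the processing: 209 were higher and 310 lower after normexp background correction, and 236 and 321 with median scaling. It tipped the other way with scaling on autosomal probes, at 278 higher and 225 lower, and with no filter on dim probes, at 221 and 147. When all 6 arrays had to find a probe well above background, 215 calls were higher and 292 lower.

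These counts rest on few arrays. Leaving out the library labelled female 1, female 2, female 3, male 1 or male 2 left 93, 96, 176, 154 and 121 calls, and leaving out male 3 left 379. With slide as a block 123 features (0.417%) passed in limma, 100 higher and 23 lower, and 121 of them were among the 546. With W genes left out of the count, 121 (0.41%) passed with slide as a block, 98 higher and 23 lower. Calls that were lower in HINTW-high were lost most often: between 9 and 42 were left without the libraries other than male 3. In the same fit with both terms, 0 features passed between the labelled sexes (limma, lowest adjusted p = 0.349, 1141 features at an unadjusted p under 0.05).

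The Z chromosome stood lower as a whole in HINTW-high. The median Z gene differed by -0.58 log2, a level 1.49-fold lower, against -0.03 for autosomal genes and 0.04 for all features. Of the 198 Z genes, 169 (85.4%) were lower, against 54.2% of autosomal genes. The classes did not overlap for 139 Z genes (70.2%), against 24.7% of all features and 22.9% of autosomal genes. Most of these were lower: 128 Z genes (64.6%) lay below all HINTW-low libraries, against 10.7% of all features. The shift of Z against autosomal genes was -0.55 log2, and it was -0.56 within slide 1 and -0.57 within slide 2. A two-sided rank test of 3 against 3 libraries cannot give a p under 0.10, and no p is given for this value.

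No autosome came near this value. Over the 29 autosomes with at least 20 measured genes, the median difference ran from -0.09 log2 on chromosome 17 to 0.09 on chromosome 25. The share of genes that passed was at most 2.63%, on chromosome 34. The share without overlap between the classes ran from 6.67% on chromosome 16, which holds the chicken major histocompatibility complex, to 33.9% on chromosome 25.

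**Figure D2:**
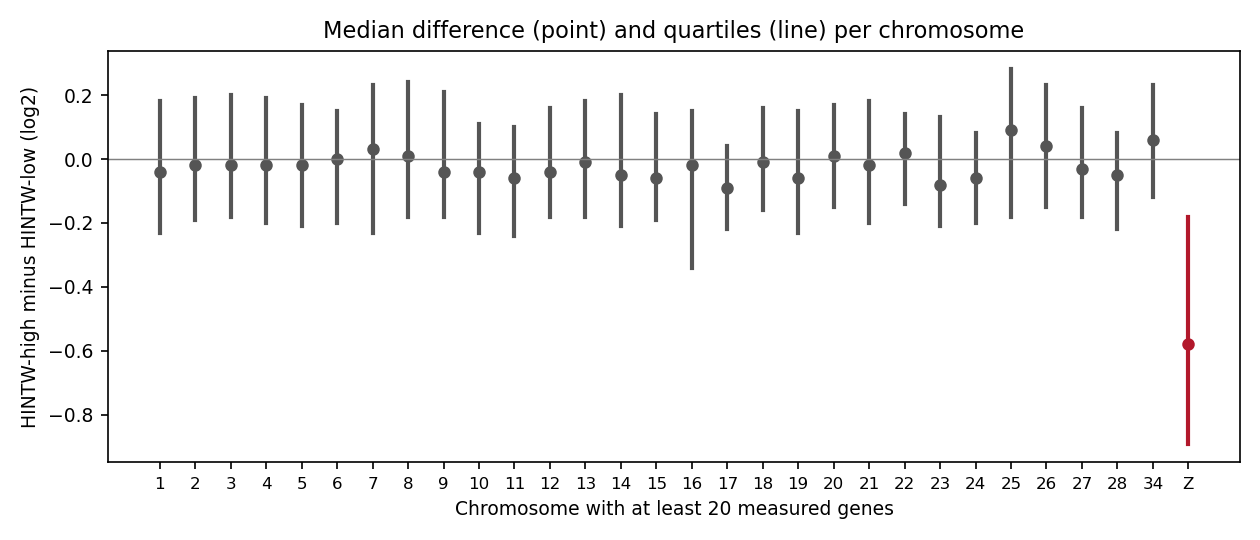
Median difference, HINTW-high minus HINTW-low (log2), of the genes of each chromosome with at least 20 measured genes; lines span the quartiles. Autosomal medians (grey) lie between -0.09 and 0.09, and the Z median (red) is -0.58, with quartiles of -0.89 and -0.18.

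The Z difference was smaller in dim genes. Among the 66 dimmest Z genes the median was -0.39 log2, with 47 lower in HINTW-high. It was -0.65 among the next 66, with 59 lower, and -0.67 among the 66 brightest, with 63 lower. Autosomal genes in the same ranges of level had medians of 0.06, -0.03 and -0.06. Where a gene had several kept probes, they mostly shared a direction on Z: in 104 of 132 such Z genes (78.8%) every probe was lower in HINTW-high, against 40.5% of 3013 autosomal genes.

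The 54 Z genes that passed and were lower differed by a median of -0.94 log2, or 1.91-fold, and 51 of them lay between 1.5 and 3-fold. These sizes belong to genes picked by the threshold, while the quartiles of all Z genes were -0.89 and -0.18 log2. All 54 were well above background in all 6 libraries. TARS, which encodes a threonyl-tRNA synthetase, had the smallest p among them. It read 1.60, 1.56 and 1.68 against 2.63, 2.62 and 2.71, a difference of -1.04 log2 (SE 0.10, limma adjusted p = 0.0108). MRPS30, a mitochondrial ribosomal protein gene, read 0.58, 0.66 and 0.76 against 1.65, 1.67 and 1.70. For both genes the libraries of a class lay close together and the classes lay well apart.

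BRIX1 and UTP15, which act in ribosome assembly, differed by -1.05 (SE 0.11) and -0.90 log2 (SE 0.10). The clathrin light chain gene CLTA differed by -1.15 log2 (SE 0.13). DCTN3, a subunit of the dynein partner dynactin, differed by -1.26 (SE 0.15), NDUFAF2, an assembly factor of respiratory complex I, by -1.06 (SE 0.12), and ANKRA2 by -0.85 log2 (SE 0.10). The limma adjusted p of these 6 genes ran from 0.0143 to 0.0185.

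Some Z genes differed by more. These were picked for their size after the values were seen. CDKN2A, a cell cycle inhibitor locus, read 0.34, 0.15 and 0.63 against 1.94, 2.36 and 2.69, a difference of -1.96 log2 (SE 0.23, limma adjusted p = 0.0186). CDKN2B, an inhibitor of the cyclin D kinases, differed by -1.66 log2 (SE 0.25, limma adjusted p = 0.0374). AVD, the biotin-binding egg-white protein avidin, read 3.21, 3.31 and 4.14 against 5.21, 6.16 and 6.30, a difference of -2.34 log2 on its brightest probe and down to -2.53 on its other 2 probes. The classes did not overlap for any of the 3 genes. GZMA, the cytotoxic protease granzyme A, had the most negative difference of any Z gene, -2.56 log2 (SE 0.80), and did not pass (limma adjusted p = 0.20), with 1.01, 2.54 and 1.87 against 2.74, 4.59 and 5.76.

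Most calls of single Z genes were lost when a library was left out. The number of Z genes called lower went from 54 to 0 without the library labelled female 1, female 2 or male 2. It was 1 without male 1, 6 without female 3 and 31 without male 3. With slide as a block 2 Z genes were called lower, CDKN2A (limma adjusted p = 0.0249) and AVD (limma adjusted p = 0.00737). With the replicate number of the labels as a block, 0 Z genes were called lower.

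**Figure D3:**
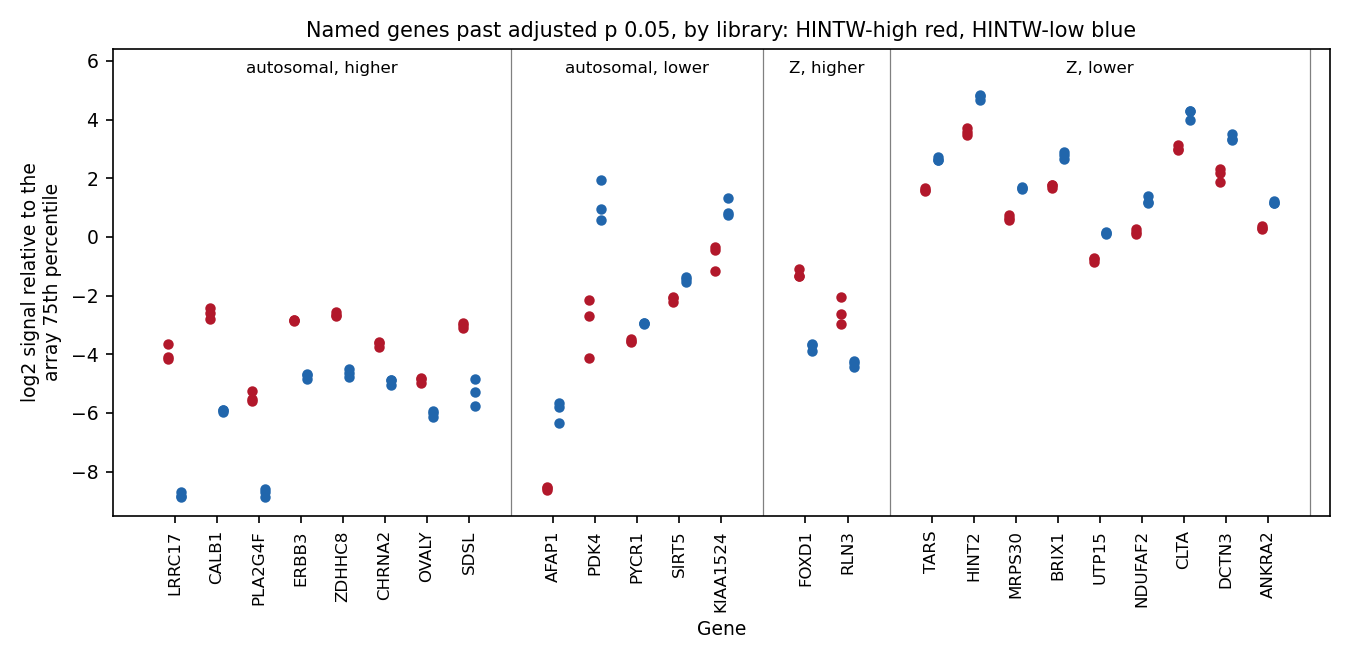
Log2 signal relative to the array's 75th percentile, per library, of named genes past the adjusted p threshold of 0.05: the first 8 autosomal genes higher in HINTW-high, the 5 autosomal genes lower, the 2 Z genes higher and 9 of the first 10 Z genes lower, each by smallest p. Red points are the 3 HINTW-high and blue points the 3 HINTW-low libraries. The genes were picked by the threshold, so the gap between the classes for every gene shown is no evidence. LRRC17 and PLA2G4F were not well above background in HINTW-low, nor was AFAP1 in HINTW-high.

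On their brightest probe the Z partners of W genes were all lower in HINTW-high, 10 of 10 measured, by a median of -0.65 log2, and 5 of them passed. Over all Z genes the median was -0.58, 85.4% were lower and 28.3% passed, so the partners stood close to the rest of Z. HINT2, the Z partner of HINTW, read 3.49, 3.57 and 3.73 against 4.81, 4.83 and 4.66, a difference of -1.17 log2 (SE 0.12, limma adjusted p = 0.0122). The transcription coactivator SUB1 fell by 0.96 log2 (SE 0.11, limma adjusted p = 0.0187) and ATP5F1AZ, the alpha subunit of mitochondrial ATP synthase, by 0.91 log2 (SE 0.12, limma adjusted p = 0.0285). SUB1 had another probe at 0.16 log2, while all 6 ATP5F1AZ probes were lower. UBAP2, a ubiquitin-associated protein gene, fell by 0.69, with its other probe at 0.20, and the ubiquitin-conjugating enzyme gene UBE2R2 by 0.63 log2. SPIN1, a reader of histone methylation, differed by -0.67 log2 and missed the threshold (limma adjusted p = 0.0535), although the classes did not overlap on any of its 6 probes. The signal mediator SMAD2 differed by -0.52 and the chromatin remodeller CHD1 by -0.29 log2. The ATPase VCP differed by -0.22 and the germ cell helicase DDX4 by -0.12 log2. None of these genes passed on its brightest probe (limma). CHD1 and VCP had probes of opposite direction, up to 0.69 and 0.74 log2, and by the mean of all probes both were higher in HINTW-high. With each probe tested on its own, 1 of the 7 CHD1 probes passed (limma) and on 4 the classes did not overlap. The CHD1 probes ran from -0.34 to 0.69 log2. Over all features of the main fit, 1.85% passed (limma) and the classes did not overlap for 24.7%.

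Not all Z genes were lower. Among 13 Z-linked genes of sex determination and cytokine signalling, 6 were higher and 7 lower in HINTW-high, with a median of -0.04 log2, and none passed on its brightest probe. DMRT1, the Z-linked gene that drives testis formation in birds, differed by -0.20 log2 (SE 0.10, limma adjusted p = 0.329), with no overlap between the classes. The interleukin 7 receptor gene IL7R differed by -0.59 (SE 0.24), the kinase gene JAK2 by 0.48 (SE 0.27) and the cytokine receptor subunit IL6ST by 0.10 log2 (SE 0.31). The prolactin receptor gene PRLR was at -0.57 (SE 0.17) and its other probe at -0.23 log2. The growth hormone receptor gene GHR was at 0.23 log2 (SE 0.19) on its brightest probe, and its 7 probes ran up to 2.26 log2. With each probe tested on its own, 2 GHR probes passed (limma) and on 5 the classes did not overlap. The shares over all features of the main fit were 1.85% and 24.7%.

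A total of 29 Z genes were higher in HINTW-high and 2 of them passed. FOXD1, a forkhead transcription factor gene, read -1.32, -1.08 and -1.34 against -3.89, -3.64 and -3.69, a difference of 2.49 log2 (SE 0.13, limma adjusted p = 0.00081). RLN3, which encodes a relaxin family hormone, read -2.96, -2.61 and -2.04 against -4.44, -4.23 and -4.29, a difference of 1.79 log2 (SE 0.24, limma adjusted p = 0.0277). For both, all HINTW-high libraries lay above all HINTW-low ones. FOXD1 passed in each of the 6 fits that left out a library and RLN3 in 1. F2RL1, a receptor for trypsin-like proteases, was at 1.31 log2 (SE 0.23) and missed the threshold (limma adjusted p = 0.0579). The lipid kinase gene PIP5K1B was at 0.89, the hedgehog receptor gene PTCH1 at 0.39, with its other probe at -0.22, and KANK1 at 1.77 log2, without passing; KANK1 was well above background in 1 HINTW-low library.

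Autosomal genes that passed were mostly higher in HINTW-high. LRRC17, a leucine-rich repeat protein gene on chromosome 1, read -4.08, -3.64 and -4.15 against -8.87, -8.84 and -8.71. The HINTW-low values were not well above background, so the difference is given as at least 6.36-fold higher in HINTW-high. The filter on dim probes kept LRRC17 only through HINTW-high, so its p is not given beside this bound. The lower bound sets the HINTW-high mean against the lowest signal well above background on each HINTW-low array. CALB1, the calcium-binding protein calbindin on chromosome 2, read -2.59, -2.42 and -2.81 against -5.89, -5.98 and -5.90, a difference of 3.32 log2 or 9.96-fold (SE 0.13, limma adjusted p = 0.000276). PLA2G4F, a cytosolic phospholipase gene on chromosome 5, was at least 2.23-fold higher. It was not well above background in HINTW-low and was likewise kept only through HINTW-high.

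ERBB3, a receptor tyrosine kinase gene on chromosome 34, read -2.87, -2.82 and -2.82 against -4.69, -4.84 and -4.66, a difference of 1.89 log2 (SE 0.11, limma adjusted p = 0.00104). All 3 HINTW-high values lay above all HINTW-low ones. The palmitoyltransferase gene ZDHHC8 was 2.00 log2 higher (SE 0.12, limma adjusted p = 0.00138), while its other probe differed by -0.01 log2. FLNA, which encodes the actin crosslinker filamin A, was 2.31 log2 higher on its brightest probe (SE 0.18, limma adjusted p = 0.00448), while the lowest of its 3 probes was at -0.19. For ZDHHC8 and FLNA the probes thus disagreed. SDSL, a serine dehydratase-like gene, was 2.29 log2 higher (SE 0.23, limma adjusted p = 0.0126).

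The other autosomal genes named by the same rule follow. The nicotinic receptor subunit gene CHRNA2 was 1.28 (SE 0.12), OVALY, a relative of ovalbumin, 1.14 (SE 0.11), and PTHLH, which encodes parathyroid hormone-related protein, 1.28 log2 higher (SE 0.14). FUT9, a fucosyltransferase gene, read -0.08, 0.01 and 0.00 against -0.94, -0.82 and -0.83. The limma adjusted p of CHRNA2, OVALY, PTHLH and FUT9 ran from 0.00853 to 0.0205. The homeobox gene IRX4 was at least 1.58-fold and the contactin gene CNTN5 at least 2.10-fold higher. Both were not well above background in HINTW-low and were kept only through HINTW-high. Of the 19 autosomal genes that were higher, 14 were well above background in all 6 libraries.

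Only 5 autosomal genes passed in the other direction. PDK4, the kinase that turns off pyruvate dehydrogenase, read -2.69, -2.15 and -4.13 against 1.93, 0.96 and 0.57. It was 4.14 log2, or 17.7-fold, lower in HINTW-high (SE 0.58, limma adjusted p = 0.0316), and its second probe differed by -2.14 log2. KIAA1524, whose product CIP2A inhibits a protein phosphatase, read -0.43, -0.34 and -1.15 against 1.33, 0.82 and 0.76, a difference of -1.61 log2 (SE 0.27, limma adjusted p = 0.0495). For both genes male 3 was the lowest and female 3 the highest library. AFAP1, an actin filament-associated protein gene on chromosome 4, was at least 1.61-fold lower in HINTW-high, where it was not well above background. The filter on dim probes kept AFAP1 only through HINTW-low. The mitochondrial desuccinylase gene SIRT5 was at -0.66 (SE 0.11) and the proline synthesis enzyme gene PYCR1 at -0.60 log2 (SE 0.10), with limma adjusted p of 0.0476 and 0.0471. C11orf96, on chromosome 5, was at -2.31 log2 (SE 0.54) on its brightest probe, with no overlap between the classes, and did not pass (limma adjusted p = 0.116).

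Of the 81 named genes outside W that passed, 8 passed in every fit that left out a library. These were LRRC17, CALB1, PLA2G4F, FOXD1, ERBB3, ZDHHC8, AFAP1 and FLNA, and they also passed with slide as a block. Of these, LRRC17, CALB1, PLA2G4F, FOXD1, ERBB3 and AFAP1 had only 1 kept probe each. For ZDHHC8 and FLNA, which had several, the probes disagreed. Passing without a library thus does not show that other probes of the gene would differ. With the replicate number of the labels as a block, FLNA did not pass (limma adjusted p = 0.0633). The genes LRRC17, PLA2G4F and AFAP1, like IRX4 and CNTN5, met the filter on dim probes only through the class where they were high. The filter had thus picked these genes for a difference, and their passing is no evidence of it. With no filter their limma adjusted p was 0.000213, 0.000691, 0.00532, 0.0337 and 0.0437 in that order. Those values too rest on signal that was not well above background in 1 class. PDK4 and KIAA1524 passed with slide as a block (limma adjusted p = 0.0043 and 0.0101) but in 1 and 0 of the 6 fits without a library.

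Of all features, 106 were well above background in all 3 HINTW-high and in no HINTW-low library, and 21 showed the reverse. Unnamed probes, which were 83.5% of all features, made up 97 and 20 of these. The filter on dim probes kept all such features only through the class where they were high, so these counts are no evidence of a difference. In all 9 pairs of 1 HINTW-high and 1 HINTW-low library, 196 features (0.664%) differed at least 2-fold the same way, 160 higher and 36 lower in HINTW-high, and 145 and 29 of them had no name. The 160 hold HINTW and LOC100857579, and with W genes left out of the count 158 were higher. The 196 also hold features that the filter kept only through the class where they were high. The count fell when all 6 arrays had to find a probe well above background. The excess of higher features among the 196 is thus no evidence of a difference. The probe for TC394189 read 0.18, 0.30 and 0.34 against -8.43, -8.60 and -8.53, and was at least 119-fold higher. The probe for CR386897 was at least 93.2-fold higher. Both probes were not well above background in HINTW-low and were kept only through HINTW-high. In the other direction, both probes for ENSGALT00000021282 passed, at -2.58 and -2.67 log2, and were well above background in all 6 libraries. These features were not placed on a chromosome here, so W and Z features among them cannot be told from autosomal ones.

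The comparison could be made separately on the slides, which share no library. Slide 1 set the mean of female 1 and 2 against female 3, and slide 2 set male 3 against the mean of male 1 and 2. On Z, 143 of 198 genes (72.2%) were lower in HINTW-high on both slides, against 26.1% of autosomal genes and 23.6% of all features. Across genes, the Pearson correlation of the differences on slide 1 and slide 2 was 0.57 over the 198 Z genes, 0.02 over the 4647 autosomal genes and 0.23 over the 24650 unnamed probes. These describe the arrays only, since the genes of a slide share its 3 libraries and are not independent replicates. No feature passed a test of the difference between slides (limma interaction, 0 of 29509, lowest adjusted p = 0.225), and 4440 had an unadjusted p under 0.05. That fit had 2 residual degrees of freedom, so the lack of calls does not show that the slides were alike.

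**Figure D4:**
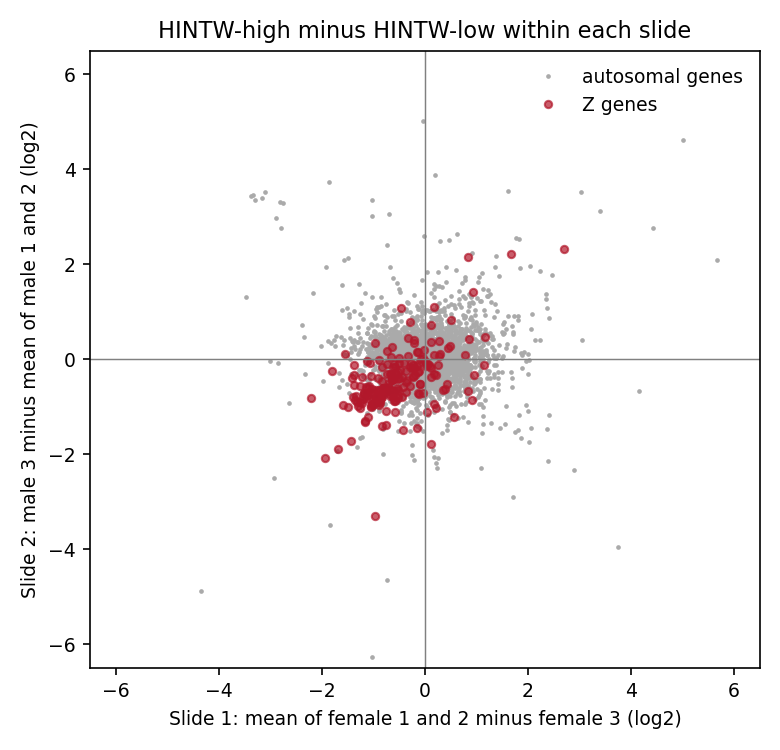
Difference between HINTW-high and HINTW-low libraries on slide 1 (x axis) and slide 2 (y axis), in log2, for autosomal genes (grey) and Z genes (red). Of the Z genes, 72.2% lie in the lower left field, against 26.1% of autosomal genes.

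Outside the lists of Z genes, 3 of 265 measured members (1.13%) passed over 19 lists of blood cell types and processes, against 1.85% of all features and 0.516% of autosomal genes. Among them were GFI1B and the Z gene HSD17B4. GFI1B, a transcription factor of the erythroid and thrombocyte lineages on chromosome 17, read -0.72, -0.84 and -0.91 against -1.47, -1.46 and -1.51, a difference of 0.65 log2 (SE 0.10, limma adjusted p = 0.0439). HSD17B4, a peroxisomal enzyme that oxidises fatty acids and steroids, fell by 0.97 log2 (SE 0.13, limma adjusted p = 0.026). Among the sex steroid and nuclear receptor genes, 12 of 19 were higher and the median was 0.17 log2. The estrogen receptor gene ESR2 was at 0.05 and the aromatase gene CYP19A1 at -0.03 log2, and neither passed (limma).

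Cytosolic ribosomal protein genes were lower in HINTW-high in 41 of 42 cases. Their median was -0.25 log2 against 0.04 for all features, and in 13 (against 10.7% of all features) the classes did not overlap. No member passed (limma). Without its 3 Z members the median was -0.24. The Z members RPL17 and RPS6 were at -0.91 (SE 0.17) and -0.88 log2 (SE 0.17), with limma adjusted p of 0.0659 and 0.0686. The median was -0.47 on slide 1 and 0.00 on slide 2. Respiratory chain genes were lower in 17 of 18, by a median of -0.25 log2, with -0.35 on slide 1 and -0.04 on slide 2. Cell cycle genes were lower in 23 of 26, by a median of -0.40 log2, with 0.00 on slide 1 and -0.51 on slide 2. In all 3 lists the median was near 0 on 1 of the slides.

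Cytotoxic cell markers were lower in 6 of 7, by a median of -1.19 log2, or -0.92 without the Z gene GZMA, with -0.30 on slide 1 and -1.52 on slide 2, and none passed. The list's mean deviation from the class midpoint was -1.19, 0.09 and -0.57 against -0.37, 0.58 and 1.46, so the classes overlapped. Interferon gamma (IFNG) read -5.39, -4.59 and -5.30 against -3.73, -3.83 and -3.46, a difference of -1.42 log2 (SE 0.24, limma adjusted p = 0.0513), and the chemokine gene CCL5 was at -1.93 log2 (SE 0.74). Fewer cells of a type and less RNA per cell cannot be told apart in these bulk samples. Of the 17 erythroid markers, 14 were higher, with a median of 0.48 log2, and 0.41 on slide 1 and 0.55 on slide 2. The erythroid list's mean deviation was 0.28, 0.12 and 0.37 against -0.20, -0.01 and -0.57, so by this measure the classes did not overlap. The summed signal of the erythroid markers did overlap, at 10.33 to 10.67 log2 in HINTW-high and 9.70 to 10.46 in HINTW-low. The carbonic anhydrase gene CA2 was at 0.88 log2 (SE 0.26). The part of erythroid signal in the other differences was not tested.

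B cell markers were lower in 11 of 12, by a median of -0.28 log2, or -0.24 without the 3 on Z, with -0.37 on slide 1 and -0.09 on slide 2. The receptor gene TNFRSF13B was at -0.96 (SE 0.32) and the B cell receptor subunit CD79B at -0.42 log2 (SE 0.19). The T cell list had a median of 0.15 log2, with -0.11 on slide 1 and 0.21 on slide 2. Of its 13 measured genes, 5 were lower in HINTW-high, among them CD8A at -1.01 (SE 0.33) and CD3D at -0.36 log2 (SE 0.12). The remaining 8 genes went the other way, with CD28 at 0.50 log2 (SE 0.18). Toll-like receptor genes were lower in 8 of 10, by a median of -0.31 log2, with -0.51 on slide 1 and -0.03 on slide 2. TLR4, the receptor for lipopolysaccharide, was at -0.76 log2 (SE 0.23), and its other probe at 0.01. Inflammatory and immediate early genes were higher in 10 of 17, with the inhibitor NFKBIA at 0.92 log2 (SE 0.21) without overlap between the classes. No member of these 4 lists passed (limma).

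The other lists lay closer to the median of all features or differed between libraries of a class. Sterol synthesis and LDL uptake genes had a median of 0.19 log2, with 8 of 10 higher. The median was -0.04 for heat shock and unfolded protein genes, -0.09 for MHC and antigen presentation genes and -0.10 for pan-leukocyte markers. It was 0.14 log2 for plasma cell markers, 0.16 for thrombocyte markers and 0.20 for interferon response genes. Markers of monocytes and macrophages were at a median of -0.26 log2, with -0.95 on slide 1 and 0.31 on slide 2. Heterophil markers had a median of 0.31 log2, made of -2.75 on slide 1 and 3.29 on slide 2. The heterophil list's mean deviation was -0.02, -1.06 and 1.34 against 1.65, -0.22 and -1.69, the widest range of any list within both classes.

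**Figure D5:**
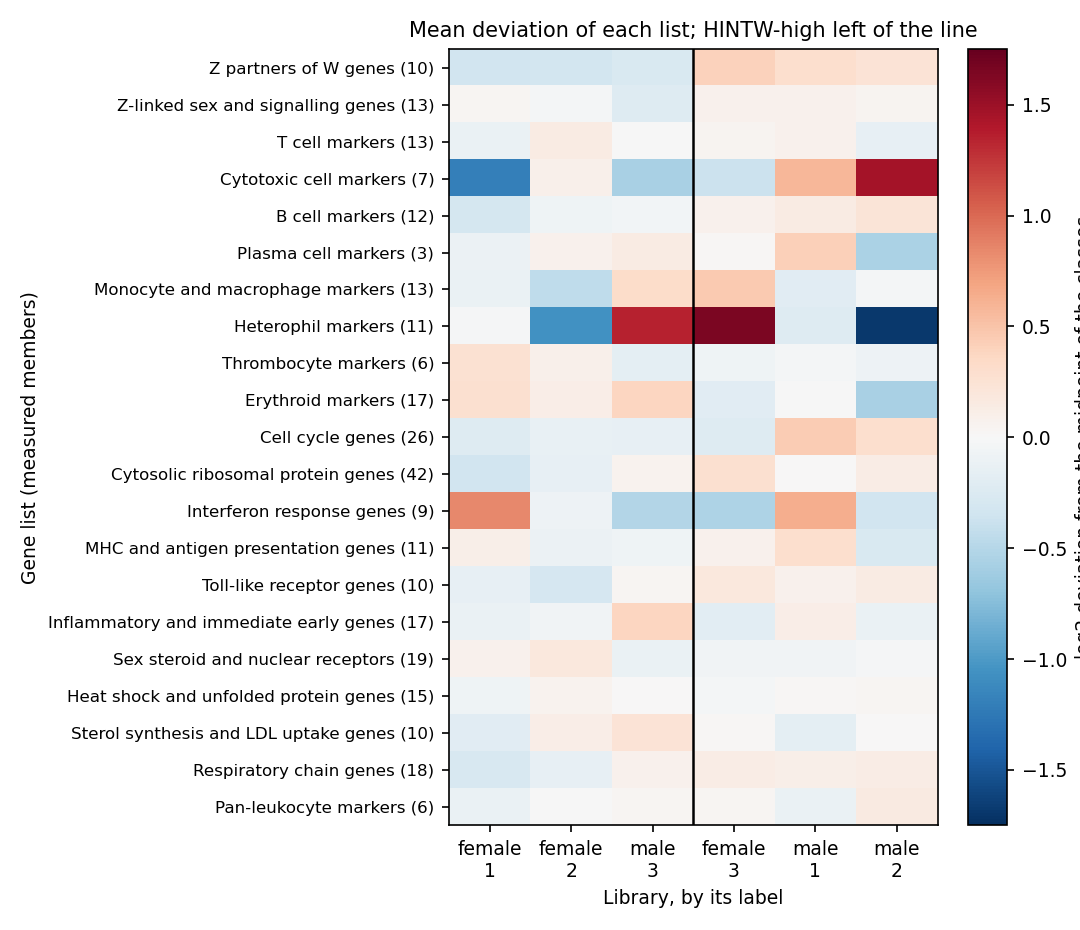
Mean log2 deviation of each gene list from the midpoint of the classes, per library (columns) and list (rows, with the number of measured members); HINTW-high libraries are left of the line. The rows of Z partners of W genes and of B cell markers go from negative to positive at the line. The row of erythroid markers goes from positive to negative there. Heterophil markers run from -1.69 to 1.65 across both classes.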

How the data were processed

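Cy3-labelled leukocyte RNA was measured on 1-colour Agilent chicken arrays, per the labels' protocols. The authors extracted spot intensity with version 11.5.1.1 of Agilent's Feature Extraction software, per the file headers, and its processed signal was used; the steps behind that signal are not detailed in the headers used here. The authors' deposited matrix holds the same intensity times 1 factor per array, between 2.10 and 2.31; it is linear and not centred, with column medians of 318, 313, 291, 286, 292 and 301 in the libraries labelled female 1 to 3 and male 1 to 3. No source used here states the target of that scaling.

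The processed signal was put on the log2 scale, less the array's own 75th percentile (controls left out). Outlier spots (3 to 12 per array) were left out. A probe was kept if 3 or more of the 6 arrays found it well above background, and a gene was represented by its brightest kept probe. RefSeq accessions matched 11935 of 43603 probes to 5382 genes of the assembly bGalGal1.mat.broiler.GRCg7b; the array's grid names galGal3, per the file headers, so no coordinates are given. HINTW classes were compared with limma 3.58.1 in R 4.3.3 (two-sided, Benjamini-Hochberg over all features). An at-least fold sets the brighter class's mean against, per array of the dimmer class, whichever is higher, the probe's value or the dimmest one that is well above background. The fits were tested on simulated data with the measured spread and known changes. Without covariates 4% of 1.5-fold and 30% of 2-fold changes were recovered, and 90% of 8-fold changes. With slide as a block these shares were 2%, 10% and 78%. Changes of the size of most Z differences were thus mostly missed in the simulation. It changed only 50 features per size, drawn at random from all features, so its shares need not hold for Z genes. In the data 28.3% of Z genes passed. Figures used matplotlib 3.10.9 in Python 3.11.15.

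Named genes were up to 10 Z and 12 autosomal genes per direction with the smallest p past the threshold, filled to 6 per direction by the smallest pairwise difference, up to 3 members per list, the Z partners and the W genes. The classes, the members and the gene lists were chosen with earlier results of these data known. Alternatives covered background correction, scaling, probe filters and summaries, test settings, slide, replicate number and left-out libraries. Normexp (offset 50) was run on median spot signals, as means were not among the columns used here. A few genes that the rule names are not reported here.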

Additional observations from a re-analysis of the deposited data

Results flagged for a closer look

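For 5 gene lists every HINTW-high library lay on one side of the HINTW-low libraries of its slide on slide 1 and on the opposite side on slide 2, by the mean over the list's members. Heterophil markers differed by -2.19 log2 on slide 1 and 2.29 on slide 2. Interferon response genes differed by 0.92 and -0.66 log2, and monocyte and macrophage markers by -0.74 and 0.44. Thrombocyte markers differed by 0.25 and -0.11 log2, and sex steroid and nuclear receptor genes by 0.19 and -0.08. The difference between slides was not tested for lists.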

How the results depend on the processing

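The direction of the Z shift was the same under every alternative run, between -0.58 and -0.47 log2: -0.47 after normexp background correction, -0.52 with no filter on dim probes, -0.51 with each probe on its own, -0.53 with slide as a block, -0.57 within slide 2, and -0.58 to -0.53 without a library. Calls numbered 123 with slide as a block and 93 to 379 without a library, which leaves fewer samples; the other alternatives apart from the replicate block gave 368 to 656. Features at least 2-fold apart in all pairs numbered 78 after normexp and 108 when all 6 arrays had to find a probe well above background, and 229 to 378 without a library, when fewer pairs have to agree. The lists with a median below 0 numbered 12 to 14 without a library, against 12.

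With the replicate number of the labels as a block, 104 features passed, 94 higher and 10 lower in HINTW-high. Of the 104, 94 were among the 546. Only 1 Z gene passed in this fit, and 0 Z genes were called lower. The numbers are not shown to pair the samples: deviations of same-numbered libraries from their class means correlated at 0.16, 0.07 and 0.19, although every library correlated best with its own number among the other class.

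Of the named genes, 6 values that had not passed changed sign: CHD1 to 0.05, VCP to 0.25 and XBP1 to 0.02 with the mean of all probes, IFIH1 to -0.05 without the library labelled female 1, DDX4 to 0.20 without female 3 and JCHAIN to -0.47 without male 2. Over all fits without a library, IFIH1 ran from -0.05 to 0.75, DDX4 from -0.45 to 0.20 and JCHAIN from -0.47 to 0.70. The causes were not tested. The spread of 3 arrays per class limits which genes could pass, and values under the lowest signal well above background have no order.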

Other observations

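Several further Z genes were more than 2-fold lower in HINTW-high without passing. GLRX, the thiol reductase glutaredoxin, read 1.22, 1.07 and 1.73 against 3.35, 2.55 and 2.54 in the same library order (limma adjusted p = 0.074). SMC2, a condensin subunit, read -1.13, -0.87 and -0.81 against -0.16, 0.67 and 0.53 (limma adjusted p = 0.0676). CD72L1, a relative of the B cell receptor modulator CD72, was at -1.27 log2 (SE 0.24), SNX24, a sorting nexin, at -1.39 (SE 0.27), and AVR2, an avidin-related gene, at -1.19 log2 (SE 0.23). For these 5 genes the classes did not overlap. ANXA1, the annexin that dampens inflammation, was at -1.09 log2 (SE 0.34, limma adjusted p = 0.205). These genes were picked after their values were seen.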
